A study of Mus musculus with 6 samples.

Results

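Glucose uptake and glycolysis were followed through 34 genes in splenic follicular helper T (Tfh) cells: 3 glucose transporters, the enzymes that turn glucose into pyruvate and lactate, 2 lactate carriers, the pyruvate dehydrogenase switch, and the transcription factors *Hif1a* and *Myc*. The genes were taken by name from a list of the pathway, drawn up with earlier results of these data known, and they are 34 of the 53379 gene identifiers counted. All 34 were found by symbol in the mouse annotation, and all 34 passed the filter on low counts, which kept 14555 genes in the test.

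Glycolysis splits glucose into pyruvate in the cytosol. Pyruvate is then either reduced to lactate and exported, or admitted to the mitochondrion by pyruvate dehydrogenase. T cells raise glucose uptake and lactate output when they are activated, largely through MYC and HIF-1, and most steps are served by several isozymes that differ in tissue, regulation or affinity.

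The Tfh cells came from the spleens of 3 CTL and 3 *Prdm1*-CKO female mice, which were immunized at 6 to 8 weeks of age with NP-CGG (a hapten on chicken gamma globulin) in complete Freund's adjuvant and studied on day 7. *Prdm1*-CKO mice carried Prdm1 fl/fl with CD11c-CRE, which is directed at CD11c-high dendritic cells and not at T cells, and removes BLIMP-1, the product of *Prdm1*. CTL mice were either Prdm1 fl/fl without CRE or Prdm1+/+ with CRE, and the labels do not say which genotype each CTL mouse had. In the labels the *Prdm1*-CKO group is a knockout by title and a knockdown by genotype. The comparison asks whether Tfh cells that developed alongside BLIMP-1-deficient dendritic cells differ in glucose metabolism genes. Cells were sorted as live TCRβ+CD4+CXCR5+PD1+ cells with no exclusion of FOXP3+ cells, so follicular regulatory T cells could be present, and *Foxp3* lay between 134 and 182 CPM. *Prdm1* itself lay between 27.5 and 30.0 CPM in the Tfh cells of CTL mice and between 30.2 and 30.9 CPM in those of *Prdm1*-CKO mice.

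Each mouse gave 1 RNA-seq library with between 7147601 and 16973392 counts. Levels are given as CPM, counts scaled to a common library size after TMM normalization, and 3 counts in a library corresponded to between 0.169 and 0.444 CPM. CTL replicate 2 stood apart from the other 5 mice on the first principal component, at 134.6 against -29.1 to -24.0. Tfh markers were present in every mouse, with *Cxcr5*, the receptor that leads T cells into follicles, between 254 and 477 CPM. Of the 12 Tfh markers, 4 had a log2 fold change above 0 and 8 below. Groups separated downwards in 2 of them, *Cd4* and *Slamf6*, and upwards in 0, against 3.86% and 4.56% of all genes tested. All 6 markers of regulatory T cells lay below 0. Macrophage markers were also present: *Lyz2* lay between 1763 and 3476 CPM, the 12 macrophage and monocyte markers summed to between 2266 and 4905 CPM in CTL mice and between 3992 and 4815 CPM in *Prdm1*-CKO mice, and 11 of the 11 tested had a log2 fold change above 0. *Cd14* and *Marco* had no counts in CTL replicate 2. The 10 B cell markers summed to between 109 and 181 CPM in CTL mice and between 154 and 242 CPM in *Prdm1*-CKO mice, all 10 with a log2 fold change above 0, and *Pax5*, *Ebf1* and *Fcer2a* had no counts in CTL replicate 2. All tested markers of plasma cells (6), neutrophils (7) and erythroid cells (5) also lay above 0. Dendritic cell markers had 2 above and 3 below, and CD8 and NK cell markers 3 above and 5 below. Groups separated upwards in 3 of the 10 B cell, 2 of the 11 macrophage and 1 of the 6 plasma cell markers. Of the 8 CD8 and NK cell markers, 1 separated upwards and 3 downwards. In the regulatory T cell, neutrophil, erythroid and dendritic cell markers, 0 separated. The shares of all genes tested are those given above for the Tfh markers. Over all genes tested, 51.1% lay above 0. The part of RNA from other cells in the levels given here was not tested. In sorted bulk samples, fewer cells of a type and less RNA per cell cannot be told apart.

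No difference between *Prdm1*-CKO and CTL Tfh cells was detected for any of the 34 genes. In edgeR's quasi-likelihood test with Benjamini-Hochberg adjustment over the 14555 genes, an adjusted p under 0.05 was reached by 0 members in either direction, against 0% of all genes, and the smallest adjusted p among the members was 0.996. At an unadjusted p under 0.05 there were also 0 members, against 2.35% of all genes tested. The smallest unadjusted p was that of *Ldha*, at 0.109, and the DESeq2 Wald test also called 0 members, with a smallest adjusted p of 1.00. The log2 fold changes of the members had a median of 0.05, with 21 above 0 and 13 below, and the median over all genes tested was 0.01. The median of the members turned to -0.02 when CTL replicate 2 was left out, and to -0.0027 when *Prdm1*-CKO replicate 1 was. Single members ran from -0.67 for *Eno2* to 0.40 for *Slc2a6*.

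The intervals show how large a difference these mice could still hold. The 95% interval of the fold change lay within 2-fold in either direction for 27 of the 34 members (79.4%), against 48.2% of all genes tested. It lay within 1.5-fold for 13 members (38.2%), against 17.4% of all genes tested. These shares were not matched by level, and 26 of the members were in the top 50% of tested genes by level per exon length. The 7 members whose interval reached beyond 2-fold were *Hk2*, *Pfkfb2*, *Pfkfb3*, *Tigar*, *Aldoc*, *Eno2* and *Eno3*, and for *Pfkfb2* and *Eno2* it reached beyond 3-fold. Groups separated fully in 1 member, *Ldha*, where the *Prdm1*-CKO mice were all above the CTL mice (2.94% of the members, against 4.56% of all genes tested). No member separated in the other direction, against 3.86% of all genes tested. These small counts changed when single mice were left out. Without CTL replicate 1, an unadjusted p under 0.05 was reached by 2 members upwards (*Slc2a6* and *Eno3*) and 1 downwards (*Pdk3*), and 6 members (17.6%) separated upwards and 1 downwards. In that fit 7.18% of all genes tested passed this threshold, and 14.1% separated upwards and 10.4% downwards. Without CTL replicate 2 it was reached by 1 member downwards (*Eno2*), with 1 member separated in each direction, against 2.31% of all genes tested at this threshold and 7.95% and 8.37% separated upwards and downwards. Without CTL replicate 3 it was reached by 1 upwards (*Gapdh*) and 3 downwards (*Slc2a3*, *Pfkfb3* and *Pdk1*), with 4 members (11.8%) separated in each direction, against 6.07% of all genes tested at this threshold and 13.0% and 11.9% separated. Leaving out a *Prdm1*-CKO mouse gave 0 such members, with 3, 3 and 2 members separated upwards for replicates 1 to 3 and 1 downwards for replicate 1, against 7.59% to 8.91% of all genes tested upwards and 6.45% to 8.79% downwards. No member was called at an adjusted p under 0.05 in any of these fits.

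**Figure D1:**
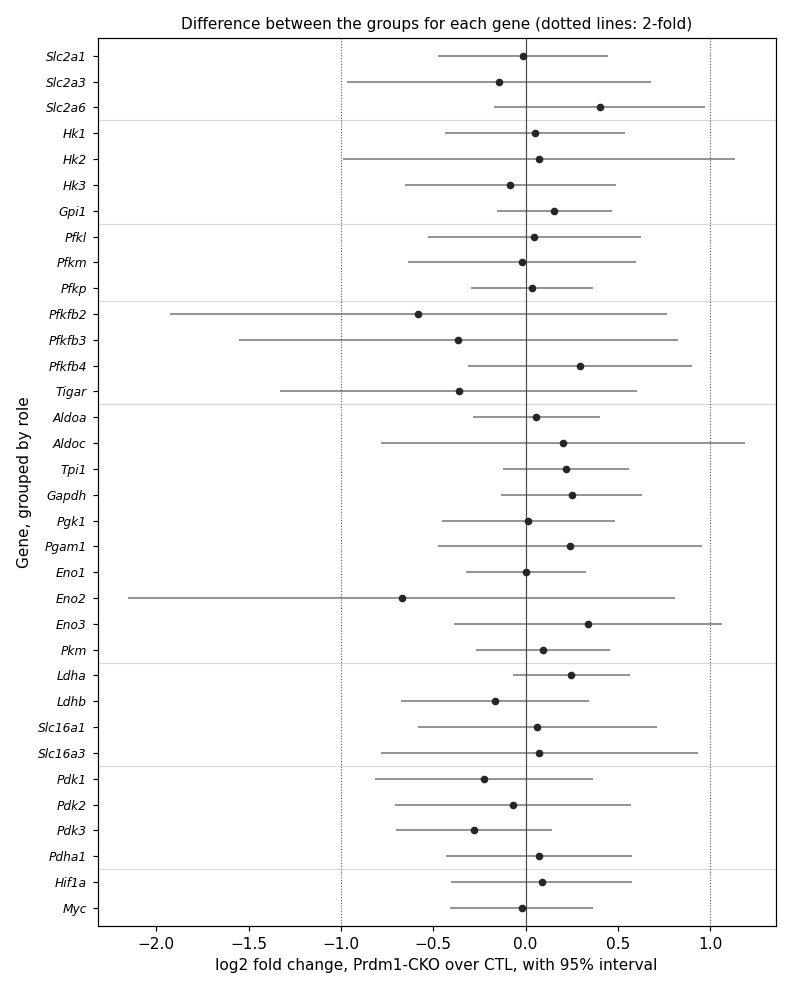
The log2 fold change of *Prdm1*-CKO over CTL for each of the 34 genes, grouped by role, with points for the estimate from edgeR and bars for its 95% interval over 3 against 3 mice. Every interval crosses 0, and 27 of the 34 stay inside the dotted lines, which mark 2-fold in either direction.

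To compare genes with each other, levels were divided by the length of the annotated exons, giving CPM per kb. *Ldha*, which turns pyruvate into lactate, was the highest member at 337 ± 43.6 CPM per kb (SD, n = 6 mice), rank 84 of the 14540 tested genes with a length. It was followed by the aldolase *Aldoa* at 199 ± 20.5, the pyruvate kinase *Pkm* at 141 ± 17.7 and the triosephosphate isomerase *Tpi1* at 87.6 ± 10.8 CPM per kb. These 4 genes, all from aldolase downwards, were the members within the top 5% of tested genes by CPM per kb. There were 10 members in the top 10% and 26 in the top 50%. At the other end, the neuronal enolase *Eno2* at 0.981 ± 0.571 and the bifunctional enzyme *Pfkfb2* at 0.598 ± 0.311 CPM per kb were the lowest members. Most neighbours in this order could not be separated. In 30 of the 33 neighbouring pairs the ranges of the 6 mice overlapped, and they did not overlap between *Ldha* and *Aldoa*, between *Pkm* and *Tpi1*, and between *Slc2a1* and *Pgk1*.

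**Figure D2:**
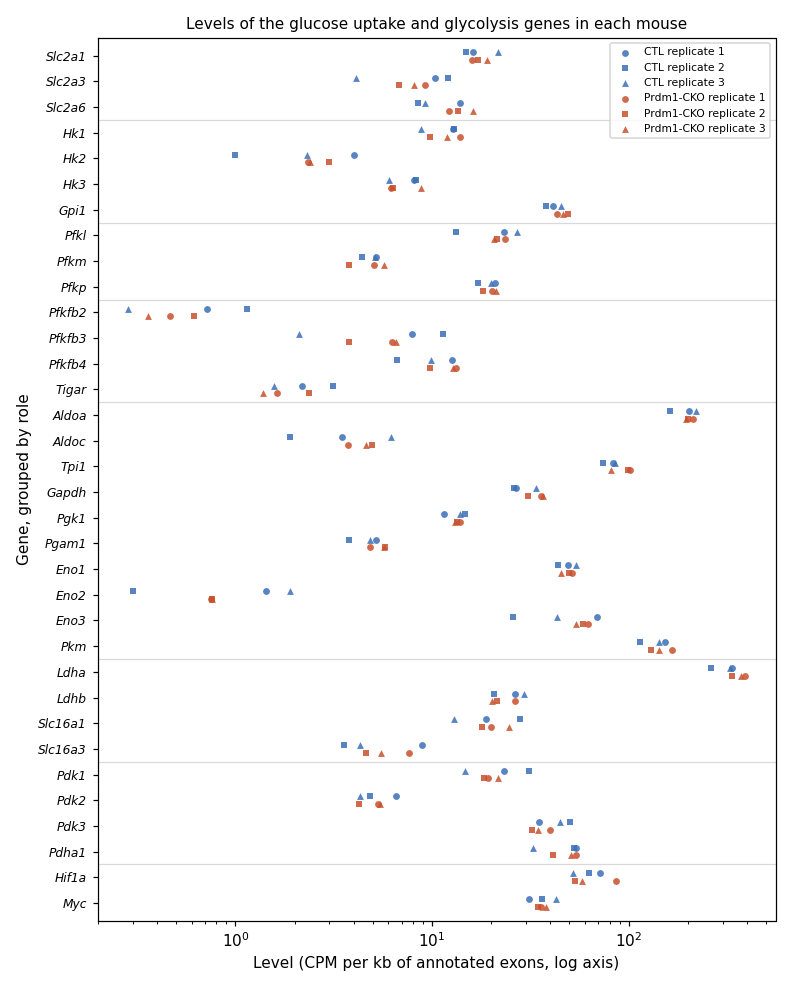
The level of each gene in each of the 6 mice, in CPM per kb of annotated exons on a log axis, with CTL mice in blue and *Prdm1*-CKO mice in red and a marker shape for each replicate number. The colours overlap for every gene but *Ldha*, and levels run from *Pfkfb2* under 1.14 to *Ldha* up to 389 CPM per kb.

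Reads of 25 bases can be hard to place in this pathway, because many of its genes have processed copies elsewhere in the genome. In the principal coding transcript of *Gapdh*, 84.9% of all 25-base windows also occur in the transcripts of another gene. The share was 78.8% for *Eno1*, 68.4% for *Pgk1*, 56.9% for *Pkm* and 47.2% for *Ldhb*. It was 44.4% for *Aldoa*, 42.8% for *Gpi1*, 42.3% for *Pgam1* and 40.5% for *Ldha*. It was at least 40% in 9 members and under 5% in 20, among them *Slc2a1*, *Slc2a3*, *Hk1*, *Hk2* and *Hk3*, and it was 0% for *Slc2a6*, *Slc16a3*, *Pdk2* and *Myc*. *Gapdh*, *Pgk1* and *Pgam1*, which act in sequence after *Aldoa* and *Tpi1*, were measured at 31.6 ± 4.51, 13.4 ± 1.08 and 5.02 ± 0.732 CPM per kb. With the length of the principal coding transcript, an alternative chosen after seeing the data, *Gapdh* was at 91.9, *Pgk1* at 16.5 and *Pgam1* at 5.61 CPM per kb. How the counting treated reads that match several places is not given in the sources used here, so comparisons of a level between these genes and the others are uncertain, while comparisons of 1 gene between mice carry the same window share in every mouse.

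Glucose enters T cells mainly through GLUT1 (*Slc2a1*, chr4:119108711-119137983 on GRCm38, plus strand) and the high-affinity GLUT3 (*Slc2a3*, chr6:122727809-122801640, minus strand). *Slc2a1* lay between 51.9 and 75.9 CPM in CTL mice and between 56.1 and 66.4 CPM in *Prdm1*-CKO mice, and the log2 fold change was -0.01 (95% interval -0.47 to 0.44). *Slc2a3* was at 74.7, 87.2 and 29.9 CPM in CTL replicates 1 to 3 and at 66.4, 49.0 and 58.6 CPM in *Prdm1*-CKO replicates 1 to 3. CTL mice held both the highest and the lowest value, and the *Prdm1*-CKO mice lay between them. Its log2 fold change was -0.14 (95% interval -0.97 to 0.68), and without CTL replicate 3 it was -0.47. *Slc2a6*, a transporter of intracellular membranes known from activated macrophages, had the highest fold change of the 34 genes and is given by mouse for that reason, having been picked after its values were seen. It was at 44.7, 27.2 and 29.7 CPM in CTL mice and at 39.3, 43.5 and 51.8 CPM in *Prdm1*-CKO mice. CTL replicate 1 lay inside the *Prdm1*-CKO range and the other CTL mice lay below it. The log2 fold change was 0.40 (95% interval -0.17 to 0.97, adjusted p = 0.996 from edgeR), and without CTL replicate 1 it was 0.64, with an adjusted p of 0.689.

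Hexokinases trap glucose as glucose-6-phosphate. *Hk1*, the housekeeping hexokinase, was at 108, 110.2 and 74.7 CPM in CTL mice and at 119, 83.4 and 102 CPM in *Prdm1*-CKO mice, so that the groups overlapped almost entirely and the log2 fold change was 0.05 (95% interval -0.43 to 0.54). *Hk2*, the form that T cells induce on activation, was lower in every mouse, between 5.92 and 23.9 CPM, and CTL mice held both of these ends. Its log2 fold change was 0.07 with an interval of -0.99 to 1.13. *Hk3*, a hexokinase mostly found in myeloid cells, lay between 22.2 and 32.2 CPM, with a log2 fold change of -0.08 (95% interval -0.66 to 0.49). Per kb, *Hk1* made up 54.3% ± 4.62 (SD, n = 6), *Hk3* 33.99% ± 3.77 and *Hk2* 11.8% ± 4.34 of the hexokinase counts. The glucose-6-phosphate isomerase *Gpi1* followed at 268 ± 23.6 CPM in CTL and 299 ± 18.6 CPM in *Prdm1*-CKO mice (SD, n = 3 each), and its groups overlapped. With a log2 fold change of 0.16 (95% interval -0.16 to 0.47), it was among the more narrowly bounded genes.

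Phosphofructokinase commits glucose to glycolysis. The liver-type *Pfkl* was at 155, 88.5 and 181 CPM in CTL mice and at 158, 143 and 138 CPM in *Prdm1*-CKO mice, with CTL replicate 2 below all others and a log2 fold change of 0.05 (95% interval -0.53 to 0.62). The platelet-type *Pfkp* was steadier, between 230.3 and 283 CPM over all mice, and the muscle-type *Pfkm* was the minor form, between 12.6 and 19.0 CPM. The fold changes of *Pfkp* (log2 0.03, 95% interval -0.29 to 0.36) and *Pfkm* (log2 -0.02, 95% interval -0.63 to 0.60) were both near 0.

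Fructose-2,6-bisphosphate is the strongest activator of phosphofructokinase. PFKFB enzymes make and remove it, and TIGAR lowers it. *Pfkfb3*, the isozyme with the highest kinase activity, was the most variable of the better expressed members. It was at 59.6, 85.6 and 16.0 CPM in CTL mice, a 5.36-fold range, and at 47.3, 28.6 and 49.5 CPM in *Prdm1*-CKO mice, which all lay inside the CTL range. The log2 fold change of *Pfkfb3* was -0.36 (95% interval -1.55 to 0.82), and it was -0.78 without CTL replicate 3. *Pfkfb4* showed CTL replicate 2 at the other end. It had its lowest value there, 32.3 CPM, and lay between 47.5 and 64.4 CPM in the other 5 mice, with a log2 fold change of 0.29 (95% interval -0.31 to 0.90). *Pfkfb2*, induced by insulin and growth signals in other tissues, lay between 2.07 and 8.29 CPM, and *Tigar* lay between 5.07 and 11.5 CPM. Both were highest in CTL replicate 2, and their log2 fold changes were -0.58 (95% interval -1.93 to 0.76) and -0.36 (95% interval -1.33 to 0.61).

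Lower glycolysis, from aldolase to pyruvate kinase, had 10 members, of which 9 had a log2 fold change above 0 and 1 below. Their median log2 fold change was 0.15, and 51.1% of all genes tested lay above 0. Without CTL replicate 2 the count was 5 above and 5 below, with *Aldoa*, *Aldoc*, *Eno1* and *Pkm* turning below 0, and the median was 0.01. *Aldoa*, which splits the hexose, was at 588, 469 and 644 CPM in CTL mice and at 618, 583 and 571 CPM in *Prdm1*-CKO mice, and its log2 fold change was 0.06 (95% interval -0.28 to 0.40). The *Prdm1*-CKO mice lay within the CTL range. *Tpi1*, the isomerase that follows, was at 223 ± 16.7 CPM in CTL and 259 ± 30.6 CPM in *Prdm1*-CKO mice (SD, n = 3 each), and its groups overlapped at a log2 fold change of 0.22 (95% interval -0.12 to 0.56). *Gapdh*, the oxidative step that yields NADH, was at 119 ± 17.96 CPM in CTL and 142 ± 13.1 CPM in *Prdm1*-CKO mice (SD, n = 3 each), and the log2 fold change was 0.25 (95% interval -0.13 to 0.63). *Pgk1*, the first step that yields ATP, was at 29.9 ± 3.72 and 30.2 ± 0.92 CPM, and *Pgam1*, the phosphoglycerate mutase, at 9.12 ± 1.47 and 10.8 ± 1.00 CPM in the same order. Both had overlapping groups. *Pkm*, the pyruvate kinase of T cells, was at 763, 573 and 713 CPM in CTL mice and at 829, 652 and 709 CPM in *Prdm1*-CKO mice, with a log2 fold change of 0.10 (95% interval -0.27 to 0.46). *Aldoc*, the brain aldolase, lay between 6.16 and 20.3 CPM, both in CTL mice.

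The 3 enolases behaved differently from mouse to mouse. *Eno1*, the general form, was at 263, 234 and 289 CPM in CTL mice and at 278, 267 and 243 CPM in *Prdm1*-CKO mice, and its log2 fold change was 0.00 (95% interval -0.32 to 0.33). *Eno3*, the muscle form, was at 119.9, 45.1 and 75.2 CPM in CTL mice and at 108, 102 and 93.8 CPM in *Prdm1*-CKO mice. The *Prdm1*-CKO mice were close together and CTL replicate 1 lay above them, while the other CTL mice lay below. Its log2 fold change was 0.34 (95% interval -0.39 to 1.06), and 0.73 without CTL replicate 1 (adjusted p = 0.686 from edgeR). *Eno2* was at 6.71, 1.42 and 8.88 CPM in CTL mice and at 3.55, 3.56 and 3.56 CPM in *Prdm1*-CKO mice. It had the most negative log2 fold change of the members, -0.67 (95% interval -2.15 to 0.81), and it was -1.14 without CTL replicate 2 (adjusted p = 0.999 from edgeR). *Eno2* and *Eno3* are given by mouse because they stood at the ends of these values. *Eno3* shares 0.325% of its 25-base windows with other genes and has a short exon length of 1739 bases, against 5379 bases for *Eno1*. Per kb of exons *Eno3* was at 52.1 ± 15.5 and *Eno1* at 48.7 ± 3.86 CPM per kb (SD, n = 6), whereas with the length of the principal coding transcript *Eno1* was at 129 and *Eno3* at 58.0 CPM per kb. The order of these enolases therefore rested on the length used.

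The highest transcript level among the members was that of a lactate dehydrogenase gene. *Ldha* (chr7:46841475-46855627, plus strand) was at 1103, 873 and 1083 CPM in CTL mice and at 1287, 1108 and 1237 CPM in *Prdm1*-CKO mice. The gap between the highest CTL mouse, at 1103 CPM, and the lowest *Prdm1*-CKO mouse, at 1108 CPM, was small beside the spread within each group, with means of 1020 ± 128 and 1211 ± 92.3 CPM (SD, n = 3 each). The log2 fold change was 0.25 (95% interval -0.07 to 0.56, adjusted p = 0.996 from edgeR), which is a fold of 1.19 with an interval of 0.953 to 1.48. Between all fits that left out 1 mouse, it ran from 0.14 to 0.32. *Ldhb*, the subunit that favours the reaction from lactate to pyruvate, lay between 31.5 and 46.0 CPM, with a log2 fold change of -0.17 (95% interval -0.67 to 0.34). Proliferation markers had 9 of 12 log2 fold changes above 0 and summed to between 1615 and 1991 CPM in CTL mice and between 1921 and 2073 CPM in *Prdm1*-CKO mice. Groups separated upwards in 3 of the 12 and downwards in 0, against 4.56% and 3.86% of all genes tested. The part of proliferation in the *Ldha* values was not tested.

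*Ldha* is a known target of both transcription factors among the members, so promoters were searched for their core letters. CACGTG is the E-box that MYC binds with MAX, and ACGTG or GCGTG is the core of the hypoxia response element that HIF-1 binds. Both strands were read over the 250 bases before each RefSeq transcription start, and CACGTG contains ACGTG on both strands. RefSeq entries on GRCm38.p6 were matched for 32 of the 34 genes, all but *Slc2a3* and *Myc*. A gene was counted when any of its windows held the letters, and the shares of other genes are over the 9814 tested genes and the 27025 genes in all that were matched to a RefSeq promoter. The E-box letters stood before 7 of the members (21.9%), against 9.92% of those tested genes and 6.86% of all matched genes. The hypoxia core stood before 28 of them (87.5%), against 60.5% of the matched tested genes and 41.5% of all matched genes. The members had 48 windows for 32 genes, and the tested genes 12499 windows for 9814 genes. Counted by window, the E-box letters stood in 14.6% for the members, against 8.30% for tested genes and 6.02% for all matched genes. The hypoxia core stood in 79.2% of windows, against 54.7% and 38.6%. A match is a description of letters and not a bound site. *Ldha* has windows before 2 RefSeq starts, both inside the annotated gene span. The window at chr7:46845554-46845803 held 2 E-boxes and 5 core matches, the most of any member, and is the one shown. The window at chr7:46846832-46847081 held 0 E-boxes and 1 core match. With the first window stand those of *Slc16a1*, a lactate carrier gene with both kinds of letters, at chr3:104638414-104638663, and of *Eno3*, at chr11:70656926-70657175, which held a single core and no E-box. All 3 windows shown are on the plus strand, written 5′ to 3′ and ending just before the start, and capitals mark the matched letters.
Ldha: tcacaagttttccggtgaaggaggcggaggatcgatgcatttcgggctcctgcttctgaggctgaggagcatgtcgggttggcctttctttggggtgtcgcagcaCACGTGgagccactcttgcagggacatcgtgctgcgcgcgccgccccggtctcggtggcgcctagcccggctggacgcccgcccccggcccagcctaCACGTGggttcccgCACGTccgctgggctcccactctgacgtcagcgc
Slc16a1: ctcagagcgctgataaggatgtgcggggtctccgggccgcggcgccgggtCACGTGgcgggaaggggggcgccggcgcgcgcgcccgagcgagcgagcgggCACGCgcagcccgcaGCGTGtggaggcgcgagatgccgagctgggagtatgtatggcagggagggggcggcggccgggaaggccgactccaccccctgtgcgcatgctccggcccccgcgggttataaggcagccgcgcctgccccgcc
Eno3: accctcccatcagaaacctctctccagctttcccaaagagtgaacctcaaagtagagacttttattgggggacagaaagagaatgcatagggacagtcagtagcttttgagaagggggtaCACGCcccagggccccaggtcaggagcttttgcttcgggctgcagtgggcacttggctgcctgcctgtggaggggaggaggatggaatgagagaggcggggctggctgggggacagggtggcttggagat

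Lactate leaves cells through the monocarboxylate carriers MCT1 (*Slc16a1*) and MCT4 (*Slc16a3*), of which MCT4 is the form suited to export. *Slc16a3* was at 47.3, 19.0 and 22.9 CPM in CTL mice and at 40.5, 24.5 and 29.2 CPM in *Prdm1*-CKO mice, and its log2 fold change was 0.07 (95% interval -0.79 to 0.93). *Slc16a1* lay between 57.3 and 124 CPM, and both ends were CTL mice. Its log2 fold change was 0.06 (95% interval -0.58 to 0.71). Where MCT4 was lowest, in CTL replicate 2, MCT1 was highest.

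Pyruvate dehydrogenase, with its catalytic subunit *Pdha1*, opens the way to the mitochondrion, and the kinases *Pdk1* to *Pdk3* close it. *Pdha1* was at 174 ± 44.3 CPM in CTL and 183 ± 24.8 CPM in *Prdm1*-CKO mice (SD, n = 3 each), with CTL replicate 3 lowest at 122 CPM. *Pdk1*, a HIF-1 target, was at 179.8, 243 and 114 CPM in CTL mice and at 149.7, 142 and 168 CPM in *Prdm1*-CKO mice. As with *Slc2a3* and *Pfkfb3*, the *Prdm1*-CKO mice lay inside the CTL range. The log2 fold change of *Pdk1* was -0.23 (95% interval -0.81 to 0.36), and -0.46 without CTL replicate 3. *Pdk3* had a log2 fold change of -0.28 (95% interval -0.70 to 0.14) and *Pdk2* of -0.07 (95% interval -0.71 to 0.57), and their groups overlapped.

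*Hif1a*, the oxygen-regulated subunit of HIF-1, was at 421, 369.8 and 309 CPM in CTL mice and at 511, 315 and 341 CPM in *Prdm1*-CKO mice, and the log2 fold change was 0.09 (95% interval -0.40 to 0.58). *Prdm1*-CKO replicate 1 held the highest value and the other 2 *Prdm1*-CKO mice lay among the CTL mice. *Myc* was at 84.5, 98.2 and 116 CPM in CTL mice and at 96.7, 94.3 and 103 CPM in *Prdm1*-CKO mice, and the log2 fold change was -0.02 (95% interval -0.41 to 0.36), with the groups overlapping. Genes known to respond to these factors outside glycolysis were counted in the same fit. Of 15 HIF-1 target genes 13 were tested, with 0 at an unadjusted p under 0.05, 9 log2 fold changes above 0 and a median of 0.07. Of 14 MYC target genes all 14 were tested, with 0 at an unadjusted p under 0.05, 6 log2 fold changes above 0 and a median of -0.02. Over all genes tested, 2.35% passed this threshold, 51.1% lay above 0 and the median was 0.01. *Vegfa*, a classical HIF-1 target, had no counts in any mouse. Groups separated in 1 of the 13 HIF-1 targets and in 2 of the 14 MYC targets, all higher in *Prdm1*-CKO mice. Of all genes tested, 4.56% separated upwards and 3.86% downwards. Whether the counts of targets exceed these shares was not tested. The carbonic anhydrase *Car9* was at 1.58, 0 and 0.148 CPM in CTL mice and at 2.82, 2.85 and 4.45 CPM in *Prdm1*-CKO mice, and its log2 fold change was 2.402 (95% interval -0.11 to 4.92, adjusted p = 0.996 from edgeR). These *Car9* values rest on 23, 0 and 1 counts in CTL mice and 50, 28 and 65 counts in *Prdm1*-CKO mice. The spermidine synthase *Srm* was at 24.0, 40.4 and 63.03 CPM in CTL mice and at 64.3, 70.7 and 67.6 CPM in *Prdm1*-CKO mice, with a log2 fold change of 0.68 (95% interval -0.06 to 1.41). The fibrillarin gene *Fbl*, of ribosomal RNA processing, was at 6.30, 12.6 and 14.9 CPM against 16.6, 18.2 and 15.1 CPM, with a log2 fold change of 0.57 (95% interval -0.26 to 1.396).

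Isozyme use was close to fixed at some steps and moved with the mouse at others. In shares of counts per kb, *Aldoa* made up 98.0% ± 0.578 of *Aldoa* and *Aldoc*, and *Ldha* 93.3% ± 1.11 of *Ldha* and *Ldhb* (SD, n = 6). *Slc2a1* made up 67.6% ± 10.1 of the 2 main transporters, *Slc16a1* 77.6% ± 7.40 of the lactate carriers and *Pdk3* 59.9% ± 5.68 of the pyruvate dehydrogenase kinases. *Pfkl* and *Pfkp* shared the phosphofructokinases at 46.4% ± 4.99 and 42.9% ± 3.78. Among the PFKFB enzymes, *Pfkfb4* ranged from 34.7% in CTL replicate 2 to 80.4% in CTL replicate 3, and *Pfkfb3* from 59.3% to 17.2% in the same mice, whereas in the 3 *Prdm1*-CKO mice *Pfkfb4* stayed between 65.0% and 68.9%. Between the groups, 9 families were tested by an exact permutation test, two-sided, of 3 against 3 mice, which cannot give a p under 0.1. The share of *Ldha* among the lactate dehydrogenases was 92.4% ± 0.539 in CTL and 94.2% ± 0.653 in *Prdm1*-CKO mice (SD, n = 3), higher in 3 of 3 *Prdm1*-CKO mice by 1.77 percentage points on average, with the smallest p that the exact test allows, 0.1, and 0.9 after adjustment over the 9 families. In the other families the exact p lay between 0.4 and 1. Lengths mattered for several shares. With plain counts *Hk1* made up 70.2% of the hexokinases, *Pdk1* 58.1% of the kinases of pyruvate dehydrogenase and *Slc2a3* 49.0% of the 2 transporters. The order of the phosphofructokinases turned, with *Pfkl* at 33.7% and *Pfkp* at 62.4% by plain counts and at 35.5% and 59.2% by the length of the principal coding transcript.

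**Figure D3:**
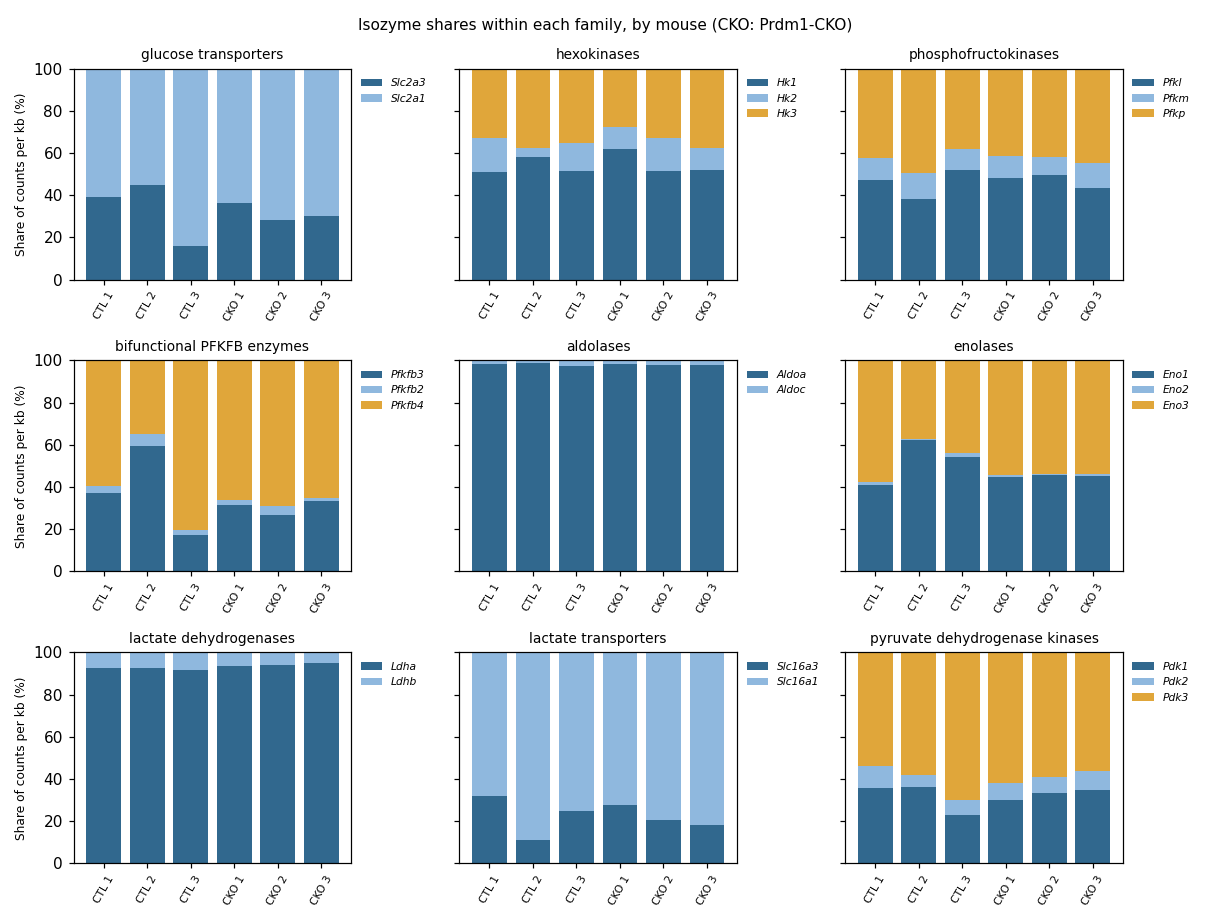
The share in percent of each isozyme in the counts per kb of exons of its family, for 9 families, with a stacked bar for each of the 3 CTL and 3 *Prdm1*-CKO mice. *Aldoa* and *Ldha* fill over 90% of their bars in all mice, while the *Pfkfb3* share falls from 59.3% in CTL replicate 2 to 17.2% in CTL replicate 3.

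Spread between mice was lower in the members than over all genes tested. The SD of log2 CPM within groups had a median of 0.28 over the 34 members, against 0.40 over all genes tested. The highest mouse stood over the lowest by a median of 1.57-fold in the members and 2.13-fold in all genes tested. Among the 2977 tested genes at or above the median level of the members, a set that leaves out low genes, these medians were 0.22 and 1.503-fold. Both were below those of the members. The members include genes under this level and that set does not, so the sets were not matched by level. Whether the members spread less than genes of like level was not tested. *Pfkp*, *Eno1*, *Pgk1* and *Gpi1* spanned the narrowest ranges, between 1.23-fold and 1.29-fold, and *Eno2*, *Pfkfb3*, *Hk2* and *Pfkfb2* the widest, between 4.0-fold and 6.25-fold. All 4 wide ranges had CTL mice at both ends.

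CTL replicate 2 was the lowest mouse for 18 members (52.9%) and the highest for 8 (23.5%), against 34.9% and 27.8% of all genes tested. In *Aldoa*, *Pfkl*, *Slc2a1*, *Aldoc*, *Eno1* and *Eno2* it was lowest while CTL replicate 3 was highest. The reverse held in 5 members, *Slc2a3*, *Pfkfb2*, *Pfkfb3*, *Slc16a1* and *Pdk1*, where CTL replicate 2 was highest and CTL replicate 3 lowest. These patterns covered 17.6% and 14.7% of the members and 9.47% and 9.19% of all genes tested. Summed over the 34 genes, levels were 5593, 4811 and 5240.2 CPM in CTL mice and 6016, 5192 and 5553 CPM in *Prdm1*-CKO mice, and *Prdm1*-CKO replicate 1 was the lowest mouse for 0 members. The summed macrophage markers were also lowest in CTL replicate 2, and their part in its low values was not tested.

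**Figure D4:**
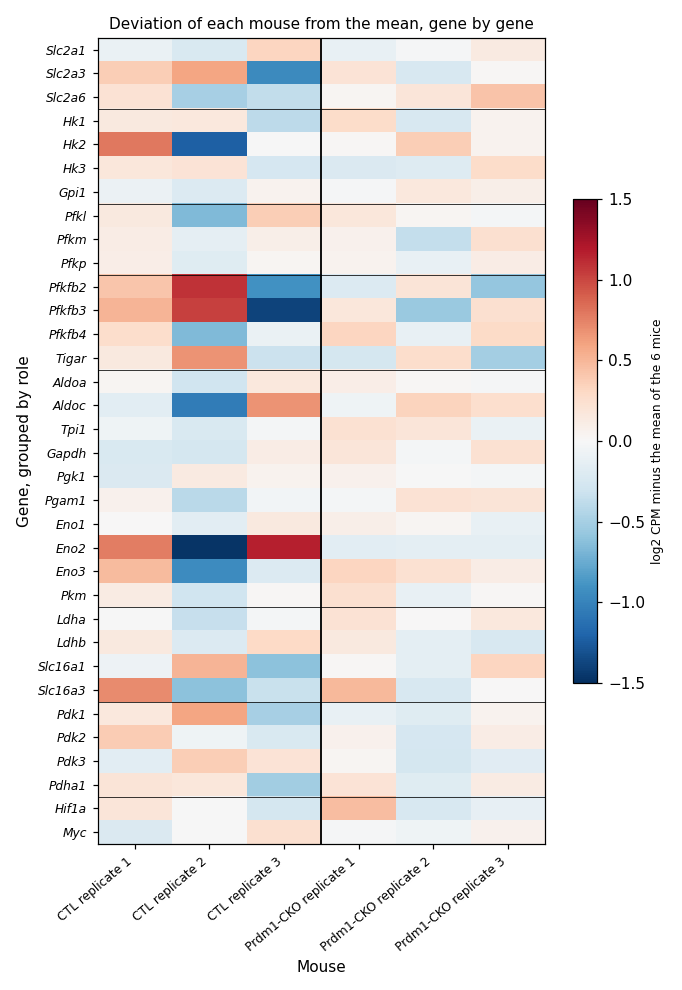
The deviation of log2 CPM in each mouse from the mean of the 6 mice for each of the 34 genes, in red where the mouse is higher and blue where it is lower, with a line between the CTL and *Prdm1*-CKO mice. The strongest colours stand in CTL replicates 2 and 3, in opposite directions for *Slc2a3*, *Pfkfb3*, *Pfkfb2* and *Pdk1*, and the largest deviation is 1.48 on the log2 scale, for *Eno2* in CTL replicate 2.

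Around the core pathway, 86 further genes of glucose metabolism were followed, of which 63 were tested. None was called at an adjusted p under 0.05. An unadjusted p under 0.05 was reached by 0 genes upwards and 2 downwards. Of all genes tested, 0.928% passed this threshold upwards and 1.42% downwards. Several tissue-restricted genes were at or near 0, and there were 14 genes with at most 3 counts in every mouse, among them *Slc2a2* and *Slc2a4*, the glucose transporters known from liver and pancreas and from muscle and fat. *Mtor*, the growth kinase, was among the lower genes. It was at 42.2, 42.1 and 43.6 CPM in CTL mice and at 31.7, 30.3 and 28.8 CPM in *Prdm1*-CKO mice, so that the groups did not overlap, with a log2 fold change of -0.49 (95% interval -0.91 to -0.08, adjusted p = 0.996 from edgeR). The downward count was 3 without CTL replicate 1 and 2 without CTL replicate 3. In those fits 3.24% and 3.94% of all genes tested passed downwards. The count fell to 1 when CTL replicate 2 or *Prdm1*-CKO replicates 1 or 2 were left out in turn. There 0.879%, 0.724% and 1.19% of all genes tested passed downwards. It fell to 0 without *Prdm1*-CKO replicate 3, where 0.788% did. The upward count was 3 without CTL replicate 1, where 3.94% of all genes tested passed upwards, and 2 without CTL replicate 3, where 2.14% did, against 0.928% with all mice.

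Branches of the pathway were read from the same fit. All 9 genes of the pentose phosphate pathway, which makes NADPH and ribose from glucose-6-phosphate, had a log2 fold change above 0, between 0.04 and 0.30, with 0 at an unadjusted p under 0.05, and 51.1% of all genes tested lay above 0. Without CTL replicate 2 the count was 3 above 0 and 6 below. Their summed level was lowest in CTL replicate 2, at 1031 CPM, and between 1272 and 1489 CPM in the other mice. Of the 10 tested genes of pyruvate entry and the pyruvate dehydrogenase complex, 5 lay above 0 and 5 below. Of the 21 tested regulators, which include *Vhl*, *Arnt*, *Max* and *Txnip*, 10 lay above 0 and 11 below.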

How the data were processed

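RNA-seq of splenic Tfh cells from 3 CTL and 3 *Prdm1*-CKO mice was used, 1 Smart-seq2 library a mouse with paired reads of 25 bases. The authors deposited raw counts per gene for each mouse, without normalization. The submitters' processing notes name STAR 2.4.2a and GRCm38.p6, and the paper names featureCounts. Strandedness and the handling of multiply aligned reads are not given in the sources used here. Symbols, lengths and coordinates were taken from GENCODE M21 on GRCm38, which held 30 of the 34 member identifiers in the same version, and coordinates are printed only for those. *Aldoa* has a second identifier with at most 9 counts in a mouse, which was left out.

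Groups were compared with edgeR 4.0.16 in R 4.3.3 (TMM, filterByExpr, quasi-likelihood F test, two-sided, Benjamini-Hochberg over 14555 genes). No separate culture or batch is recorded in the labels. Levels are CPM. The SD of log2 CPM within groups and the principal components used 2 counts added as the prior. The deviations of each mouse from the mean used log2 CPM without a prior. Floors of counts cover counting error only. The intervals of the fold changes come from the quasi-likelihood fit of edgeR and also include the spread between mice. The steps were tested on simulated data. DESeq2 1.42.0, voom weights from limma 3.58.1, other filters and scalings, a replicate block and leaving out each mouse were alternatives. Members, lists and motifs were chosen with earlier results of these data known. Genes given mouse by mouse were the first isozyme of each family, *Hif1a*, *Myc*, and genes with separated groups or, in the wider lists, an unadjusted p under 0.05. *Slc2a6*, *Eno2* and *Eno3* were added after their values were seen, and *Pkm* is also given by mouse outside this rule. Values of some genes of the wider lists are not reported here.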

Additional observations from a re-analysis of the deposited data

How the results depend on the processing

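No member was called higher or lower at an adjusted p under 0.05 with the replicate block, with voom and its sample quality weights, with no filter or a minimum of 10 counts in all mice, with DESeq2's Wald test or its size factors alone, or without any 1 mouse, and the smallest adjusted p among the members over all of these was 0.686, without CTL replicate 1. The design therefore limits the report to bounds on the differences. Over all genes, the DESeq2 Wald test called 9 and the fit with no filter called 1, and the other fits called 0. For single members the sign of the log2 fold change was the same in 192 of 204 values under the 6 settings that kept all mice. It turned, with a small value in most cases, under voom with sample quality weights for *Slc2a1* (0.025), *Hk2* (-0.23), *Pfkl* (-0.051), *Pfkm* (0.0077), *Pfkfb3* (0.0030), *Eno1* (-0.045), *Slc16a3* (-0.13) and *Myc* (0.075), without the filter for *Slc2a1* (0.0086), *Pfkm* (0.0046) and *Myc* (0.0025), and with DESeq2's size factors for *Eno1* (-0.0020). When a mouse was left out, 163 of 204 values had the same sign, and 21 members turned at least once, with these ranges of the log2 fold change: *Slc2a1* (-0.13 to 0.17), *Slc2a3* (-0.47 to 0.14), *Hk1* (-0.10 to 0.18), *Hk2* (-0.31 to 0.63), *Hk3* (-0.26 to 0.011), *Pfkl* (-0.21 to 0.27), *Pfkm* (-0.15 to 0.14), *Pfkp* (-0.054 to 0.10), *Pfkfb3* (-0.78 to 0.13), *Aldoa* (-0.072 to 0.17), *Aldoc* (-0.14 to 0.72), *Pgk1* (-0.10 to 0.079), *Eno1* (-0.085 to 0.085), *Pkm* (-0.025 to 0.18), *Slc16a1* (-0.16 to 0.38), *Slc16a3* (-0.17 to 0.57), *Pdk1* (-0.46 to 0.051), *Pdk2* (-0.18 to 0.12), *Pdha1* (-0.12 to 0.19), *Hif1a* (-0.15 to 0.23) and *Myc* (-0.14 to 0.11). The cause was not tested.

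The median log2 fold change of the members ran from -0.018 without CTL replicate 2 to 0.090 without *Prdm1*-CKO replicate 2, and was -0.0027 without *Prdm1*-CKO replicate 1. Leaving out each mouse gave unadjusted p values under 0.05 for 0 to 2 members upwards and 0 to 3 downwards, and 1 to 6 members separated upwards and 0 to 4 downwards. In the same fits, 0.394% to 3.94% of all genes tested passed this threshold upwards and 0.724% to 3.94% downwards. Between 7.59% and 14.1% of them separated upwards and between 6.45% and 11.9% downwards. Among the wider glucose genes the same threshold was passed by 0 to 3 genes in each direction, and the 2 lower genes became 1 without the filter and 1 with the replicate block. The replicate numbers are shared between the groups, and the residuals of same-numbered mice correlated at 0.158, 0.0282 and 0.0160 across genes. Mice of different groups and numbers correlated at between -0.131 and 0.0829. So few correlations cannot decide whether the numbers mark pairs. With the replicate block 0 members were called and 371 genes passed an unadjusted p under 0.05, against 342 without it. The voom weight of CTL replicate 2 was 0.330, against 0.764 to 2.37 in the other mice.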
